A study of Mus musculus with 21 samples.

Results

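Selenium-binding proteins 1 and 2, encoded by Selenbp1 and Selenbp2, were followed across colon and ileum in a study of the vitamin D receptor (VDR), through which the hormone 1,25-dihydroxyvitamin D3 (1,25D3) acts on genes. They are 2 of the 21441 genes in each of 6 deposited tables of FPKM, which scales the fragments counted on a gene by its length and by the size of the library. Both were chosen on values already seen in these libraries: Selenbp2 for its difference between uninjected transgenic and KO colon, and Selenbp1 as its near copy on the same chromosome. For Selenbp2 that comparison is therefore described and not tested.

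Of the 21 samples, 3 colon and 3 ileum samples came from treated transgenic mice, 4 colon and 3 ileum samples from uninjected transgenic mice, and 4 samples of each tissue from KO mice. The transgenic line, labelled CDX2-VDR, lacks the mouse's own VDR and carries human VDR, per the labels restricted to the distal intestine. Treated animals received 1,25D3 at 1 ng per g of body weight in 3 injections, at 48, 24 and 6 h before the end. The KO line, labelled Villin-CreERT2 VDR f/f, deletes the floxed receptor through a Cre recombinase that villin's promoter drives in the intestinal epithelium and that tamoxifen activates. All lines were C57BL6J, and no group is wild type for the receptor. Treated mice were 9 weeks old, uninjected mice 9 or 10 weeks and KO mice 9 or 11 weeks. Treated and KO mice were all male, whereas 3 of the 4 uninjected colon samples and 2 of the 3 uninjected ileum samples came from females. Sex therefore largely goes with group wherever uninjected mice are compared, and it was a covariate only in uninjected minus KO colon. How the receptor was lost, the transgene and any tamoxifen cannot be told apart between KO and transgenic mice, nor can injection and 1,25D3 between treated and uninjected ones. Libraries are called by the number their column carries.

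Selenium-binding proteins hold selenium without being selenoproteins: they contain no selenocysteine and need none of the machinery that inserts it. Human SELENBP1 is a methanethiol oxidase, which turns methanethiol, a sulfur gas made by gut bacteria and by the host, into hydrogen peroxide, formaldehyde and hydrogen sulfide. It is abundant in mature colonic epithelium and lowered in human colorectal cancer. Selenbp2 is a close relative of Selenbp1 in the mouse, first known in liver as a protein that binds acetaminophen.

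The genes lie on chromosome 3 of mm9, both on the plus strand, with Selenbp2 at chr3:94497478-94508335 and Selenbp1 at chr3:94736978-94748680. A distance of 229 kb separates them, and 2 annotated genes, Pogz and Psmb4, stand between. Their main transcripts, of 1719 bases for Selenbp2 and 1712 for Selenbp1, carry coding sequences of 1419 bases each that align without a gap and differ at 18 bases, an identity of 98.7%. The 60-base stretch of the coding sequence with the most differences, bases 390 to 449, is shown because it holds only 4 of them, in capitals, and reads that fall on such stretches are the ones that can tell the genes apart.
Selenbp2: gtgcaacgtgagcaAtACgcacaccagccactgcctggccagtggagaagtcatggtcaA
Selenbp1: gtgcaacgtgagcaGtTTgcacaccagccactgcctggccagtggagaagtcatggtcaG

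The longest stretch of identical coding bases ran to 193. Of all windows along the Selenbp2 transcript, 52% of those of 50 bases, 21.2% of those of 100 bases and 6.94% of those of 150 bases also occur in the Selenbp1 transcript. How reads that match both genes were shared out upstream is not given in the sources used here, so the level of the rarer gene is uncertain wherever the other is far more abundant.

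The stretches that lead up to the RefSeq start of each gene are also alike, and are printed because the levels that follow differ between the genes while these sequences hardly do. The 250 bases before the RefSeq start, on mm9 at chr3:94497245-94497494 for Selenbp2 and chr3:94736755-94737004 for Selenbp1, both on the plus strand, are given from RefSeq's table of build GRCm38.p6, which holds both genes, and were placed on mm9 by 1 exact match each. GENCODE annotates earlier starts on mm9, so the last 17 bases for Selenbp2 and the last 27 for Selenbp1 fall inside the genes as positioned above. Capitals mark bases, within the aligned part, that differ from the other gene or that the other gene lacks. The first 2 and last 10 bases of the Selenbp1 stretch lie outside that part, have no partner in the Selenbp2 stretch and stay in lower case.
Selenbp2: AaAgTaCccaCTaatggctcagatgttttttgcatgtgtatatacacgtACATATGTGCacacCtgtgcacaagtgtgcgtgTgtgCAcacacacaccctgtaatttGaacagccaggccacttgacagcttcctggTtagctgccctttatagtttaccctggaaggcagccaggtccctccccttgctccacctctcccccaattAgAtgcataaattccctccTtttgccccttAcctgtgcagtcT
Selenbp1: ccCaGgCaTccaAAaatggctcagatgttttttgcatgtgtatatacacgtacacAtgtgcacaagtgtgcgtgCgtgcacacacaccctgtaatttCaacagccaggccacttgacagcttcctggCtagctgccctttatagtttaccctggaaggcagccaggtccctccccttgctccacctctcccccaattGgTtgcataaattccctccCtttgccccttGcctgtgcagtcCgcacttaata

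Aligned, these stretches share 223 of 238 bases, an identity of 93.7%, with 12 further bases present in Selenbp2 alone. Over the full RefSeq windows, which run on past the start, a search of both strands found no direct repeat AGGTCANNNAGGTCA, the kind of element VDR is known to bind, in either gene; 0.00609% of 32851 promoter windows hold it. A single half-site AGGTCA, present in 16.3% of windows, was absent from both. The letters ATAAA, the core of CDX2 sites, occurred at 2 places in each gene, as in 40% of windows that hold them at least once, and 1 of the places is also the TATAAA that 13.6% of windows contain. These letters say nothing of whether a factor binds.

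Measured per length, Selenbp1 was among the most abundant transcripts of the colon. By its mean FPKM it ranked 157th in treated, 111th in uninjected and 110th in KO colon among the 21441 genes. Selenbp2 ranked 2105th in treated, 1949th in uninjected and 7977th in KO colon. In the ileum Selenbp1 ranked 1857th in treated, 1360th in uninjected and 1293rd in KO mice, and Selenbp2 ranked 9255th, 9042nd and 10888th in the same order.

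In the colon, Selenbp2 stood apart between every transgenic and every KO library. It measured 54.9, 45.1, 46.8 and 63.6 FPKM in the 4 uninjected transgenic colons, against 6.98, 5.75, 6.62 and 3.43 FPKM in the 4 KO colons. The lowest uninjected library lay far above the highest KO library, and KO library 4 was the lowest of all. The group means were 52.6 ± 8.50 FPKM in uninjected and 5.70 ± 1.60 FPKM in KO colon (SD, n = 4 each). On the log2(FPKM + 0.5) scale the difference was 3.13 (SE 0.246), or 8.75-fold. Because this difference chose the gene, its size may be overstated, and no interval is given here. With labelled sex as a covariate the difference was 3.41. All KO colons were male, so that value sets only 1 library, the sole male among the uninjected colons, against them; its level, 63.6 FPKM, was the highest. In this comparison 0.0804% of 12437 genes passed an adjusted p of 0.05 and 2.71% had groups that did not overlap; since it chose the gene, nothing is read from those shares. In bulk libraries like these, more cells that express a gene cannot be told from more RNA per cell.

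In treated transgenic colon Selenbp2 was also higher than in KO colon. Treated colons held 57.6, 39.3 and 44.9 FPKM, against 7.39, 6.09, 7.10 and 3.64 FPKM in KO colons, and the groups did not overlap. Selenbp2 averaged 47.3 ± 9.41 FPKM in treated colon (SD, n = 3), against 6.06 ± 1.70 FPKM in KO colon (SD, n = 4). The log2 difference was 2.89 (SE 0.259), 7.41-fold with an interval of 4.91-fold to 11.2-fold, and it passed limma's test with an adjusted p of 0.00313, as it did in all 15 alternatives (0.00239 to 0.0209). Of 12505 genes, 0.296% passed this test, and 8.04% had groups that did not overlap. Treated and KO mice were of 1 sex, so sex does not differ between these groups. The KO libraries are the ones used to choose the gene, so this comparison is not independent of that choice.

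No further difference of Selenbp2 was detected between treated and uninjected colon. In the table that holds both transgenic groups, Selenbp2 had 54.5, 37.0 and 42.8 FPKM in treated colons, against 55.5, 45.6, 46.9 and 64.0 FPKM in uninjected colons. The ranges overlapped, although treated libraries 2 and 4 lay below every uninjected one. The log2 difference was -0.24 (SE 0.275), with an interval of -0.87 to 0.38 and an adjusted p of 0.9995 by limma. No gene of 12567 passed in this comparison (0%), with 143 at an unadjusted p below 0.05, and 1.37% had groups that did not overlap. The uninjected libraries here are again those that chose the gene.

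**Figure D1:**
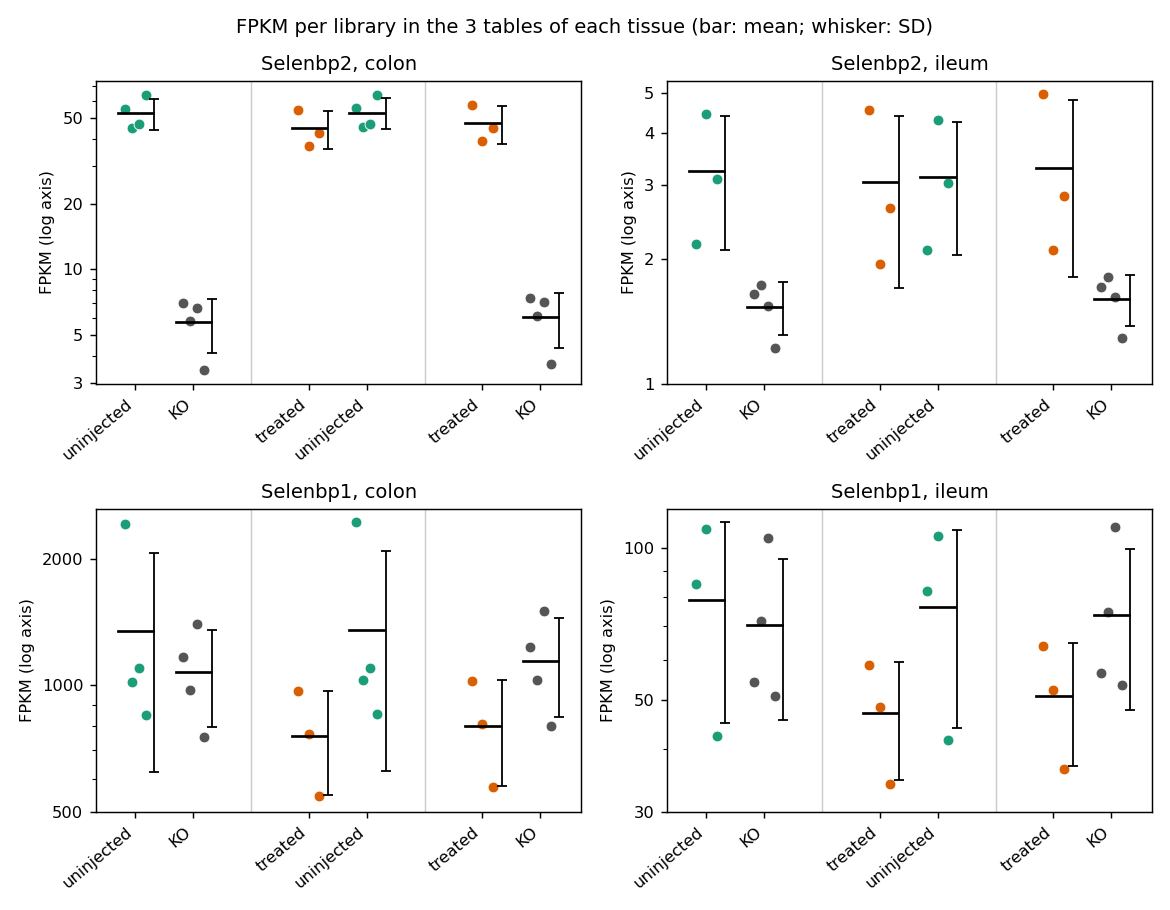
FPKM of Selenbp2 (top) and Selenbp1 (bottom) in each library of the colon (left) and ileum (right), on log axes; each panel holds the 3 tables of its tissue, separated by grey lines, with 1 point per library, a bar at the mean and a whisker of 1 SD. Selenbp2 lies between 45.1 and 63.6 FPKM in uninjected colon and between 3.43 and 6.98 FPKM in KO colon, whereas the Selenbp1 groups overlap in every panel.

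Selenbp1 did not share this pattern. Its level was 2424, 1022, 1099 and 848 FPKM in uninjected colons, against 1169, 973, 1405 and 752 FPKM in KO colons. Uninjected library 1 was the highest of the 8, and the other uninjected libraries fell within the KO range. The log2 difference was 0.24 (SE 0.367, adjusted p = 0.827 by limma, n = 4 each), and -0.04 under quantile normalization, -0.30 with labelled sex as a covariate, which again rests on the 1 male uninjected library, and -0.09 without uninjected library 1.

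Treated colons had 1023, 811 and 572 FPKM of Selenbp1, against 1238, 1031, 1506 and 799 FPKM in KO colons. The groups overlapped, with a log2 difference of -0.51 (SE 0.296), an interval of -1.19 to 0.17 and an adjusted p of 0.768 by limma. In the table of both transgenic groups, treated colons had 968, 764 and 546 FPKM of Selenbp1, against 2448, 1033, 1101 and 853 FPKM in uninjected colons. Here the log2 difference was -0.75 (SE 0.436), with an interval of -1.74 to 0.24 and an adjusted p of 0.9995.

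In the ileum both genes were far lower on the FPKM scale. The tables of the tissues were scaled separately, so this is a statement of levels with no test. Selenbp2 measured 2.17, 4.45 and 3.11 FPKM in uninjected ileum, against 1.65, 1.73, 1.53 and 1.22 FPKM in KO ileum. Every uninjected library was above every KO library, but the nearest pair, 2.17 and 1.73 FPKM, lay close together. The means were 3.24 ± 1.15 FPKM in uninjected ileum (SD, n = 3) and 1.53 ± 0.224 FPKM in KO ileum (SD, n = 4). The log2 difference of 0.84 (SE 0.285) did not pass, with an adjusted p of 0.665 by limma and an unadjusted p of 0.0161. In this comparison 8.61% of 11827 genes had groups that did not overlap and 0.00846% passed the test.

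Treated ileum held 4.98, 2.10 and 2.83 FPKM of Selenbp2, against 1.71, 1.80, 1.61 and 1.29 FPKM in KO ileum. Again the groups did not overlap, as for 5% of 11974 genes. The log2 difference of 0.79 (SE 0.311) had an adjusted p of 0.939 by limma and did not pass, while 0.0835% of the genes did. Between the transgenic groups, treated ileum had 4.55, 1.95 and 2.65 FPKM, against 2.10, 4.30 and 3.04 FPKM in uninjected ileum. These ranges overlapped almost wholly, with a log2 difference of -0.06 (SE 0.440, adjusted p = 1 by limma) that was above 0 when uninjected library 3 (0.16) or treated library 2 (0.17) was left out. Among the 11815 genes of that comparison, 0% passed limma's test, with 97 at an unadjusted p below 0.05, and 2.7% had groups that did not overlap. No ileum library entered the comparison that chose Selenbp2, though the 3 ileum comparisons share groups with each other and the labels do not say whether both tissues came from the same mice.

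Selenbp1 in the ileum measured 85.0, 109 and 42.4 FPKM in uninjected mice, against 54.2, 71.8, 105 and 50.8 FPKM in KO mice. The values intermingled, with a log2 difference of 0.12 (SE 0.394, adjusted p = 0.894 by limma) that was -0.10 under quantile normalization. Treated ileum had 64.0, 52.2 and 36.4 FPKM, against 56.5, 74.7, 110 and 53.6 FPKM in KO ileum, and its log2 difference of -0.51 (SE 0.326) did not pass (adjusted p = 0.939 by limma). Treated ileum in the transgenic table had 58.6, 48.4 and 34.1 FPKM, against 82.2, 106 and 41.6 FPKM in uninjected ileum. That log2 difference was -0.63 (SE 0.45, adjusted p = 1 by limma), and the ranges overlapped.

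**Figure D2:**
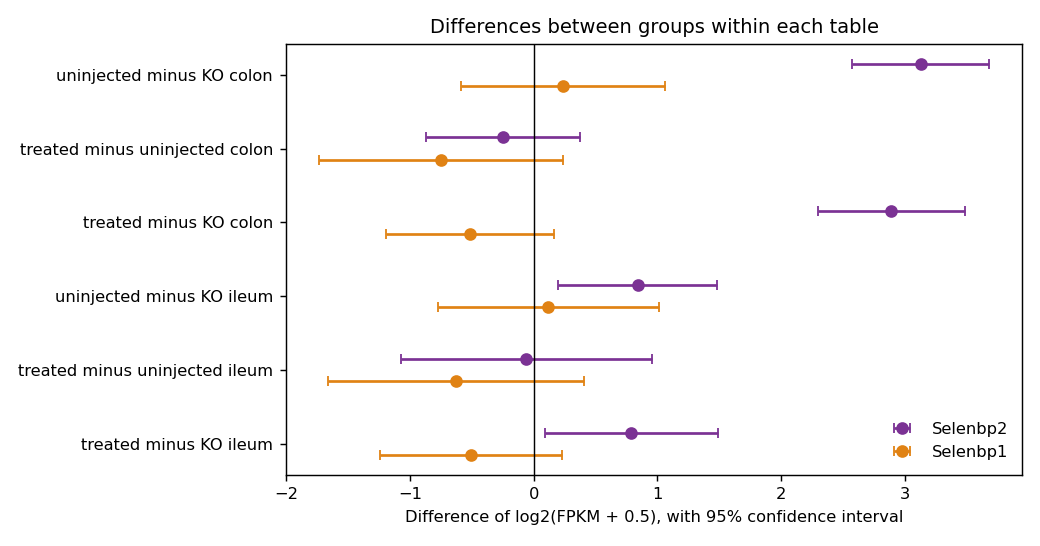
Difference of log2(FPKM + 0.5) between groups for Selenbp2 (purple) and Selenbp1 (orange) in the 6 comparisons, with 95% confidence intervals from limma. The Selenbp2 points at 3.13 and 2.89 in the colon stand clear of the rest. The first is the difference that chose the gene and the second shares its KO libraries. Their place is therefore not independent of that choice, and the intervals take no account of it. The Selenbp1 intervals all include 0. Its points for uninjected minus KO turn to -0.04 in the colon and -0.10 in the ileum under quantile normalization.

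Whether the effect differed between tissues was asked of the 2 within-table differences in 1 limma fit. This fit took colon and ileum libraries as independent, although the labels do not say whether both tissues came from the same mice. For Selenbp2 the treated minus KO difference was smaller in the ileum than in the colon by 2.10 on the log2 scale: the estimate, ileum minus colon, was -2.10 (SE 0.400). Its adjusted p of 0.175 by limma did not pass, and over the alternatives it ranged from 0.106 to 0.355. Of 12448 genes, 0.00803% passed this test. It uses the KO colon libraries that chose the gene, so its p is not independent of that choice. The same estimate for uninjected minus KO was -2.29 (SE 0.362) and holds the comparison that chose the gene, so it is given without a test; 0.00809% of 12364 genes passed there. For treated minus uninjected the estimate was 0.18 (SE 0.466, adjusted p = 1 by limma), likewise with uninjected colon libraries that chose the gene, in a comparison where 0% of 12437 genes passed and 28 had an unadjusted p below 0.05. The Selenbp1 estimates were 0.01 for treated minus KO, 0.12 for treated minus uninjected and -0.12 for uninjected minus KO, and none passed. Of these, the first was -0.05 and the second -0.01 under quantile normalization, and the first -0.01 under median-ratio scaling.

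The ratio of Selenbp2 to Selenbp1 FPKM, called the share here, needs no scaling between libraries, since both genes are read in the same one. Selenbp2 amounted to 5.63%, 4.84% and 7.85% of the Selenbp1 FPKM in treated colons. In uninjected colons it amounted to 2.27%, 4.41%, 4.26% and 7.50%, and in KO colons to 0.597%, 0.591%, 0.471% and 0.456%. The KO colons were tightly grouped and below every transgenic colon. The Selenbp2 values of uninjected and KO colon chose the gene, so this separation is not independent of that choice. In treated ileum the share was 7.77%, 4.02% and 7.77%, and in uninjected ileum 2.55%, 4.07% and 7.32%, against 3.04%, 2.41%, 1.46% and 2.40% in KO ileum. There the uninjected and KO groups overlapped. The mean of 0.529% in KO colon was the lowest of the 6 groups, whose others ran from 2.33% in KO ileum to 6.52% in treated ileum. With sequences so alike, the KO colon is where Selenbp2 is most exposed to reads of Selenbp1, and the part of such reads was not tested.

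**Figure D3:**
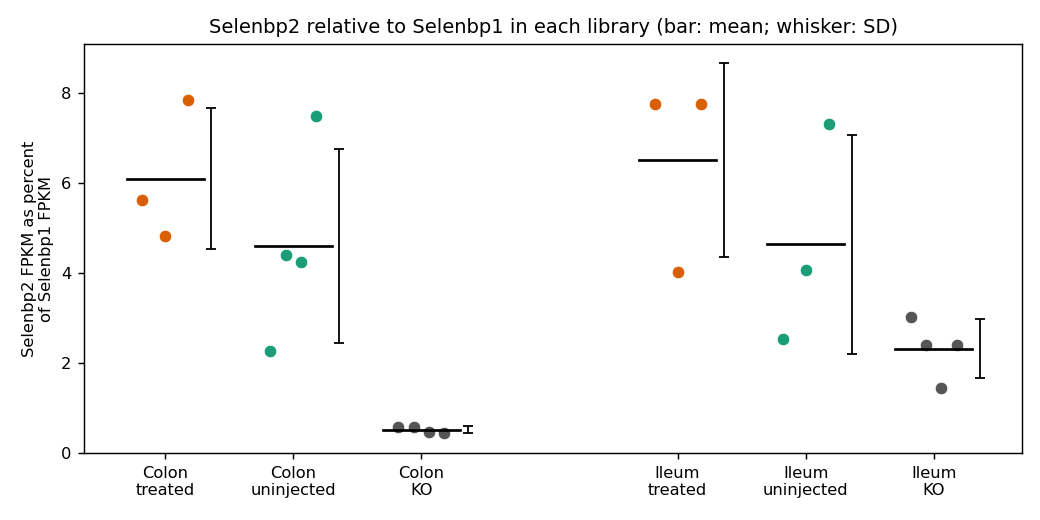
Selenbp2 FPKM as a percent of Selenbp1 FPKM in each library, by tissue and group, with a bar at the mean and a whisker of 1 SD. The 4 KO colon libraries sit between 0.456% and 0.597%, and every other library sits at 1.46% or above. The uninjected and KO colon libraries are those that chose Selenbp2.

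Within a library, the deposited FPKM of most genes came in equal steps, each step being 1 counted read or read pair, so the counts behind these values can be read off. Selenbp2 in the colon rested on 2626, 621 and 1710 steps in treated, on 1513, 1451, 638 and 4328 in uninjected and on 269, 242, 239 and 175 in KO libraries. Selenbp1 in the colon rested on 12740 to 46311 steps in treated, 14889 to 66291 in uninjected and 38142 to 50368 in KO libraries. In the ileum the counts of Selenbp2 were small, at 141, 58 and 109 in treated, 84, 71 and 193 in uninjected and 54, 66, 42 and 50 in KO libraries. The steps of Selenbp2 in the ileum may be pairs where those of Selenbp1 are reads, since the worth of 1 step relative to Selenbp1 was 1.987 there and 0.9933 in the colon. Over genes with whole steps, libraries held at least 7598898 to 30704927 steps in the colon and 11183533 to 36910556 in the ileum. Those genes made up 68.9% to 76.5% of a library's FPKM in the colon and 45.6% to 56.8% in the ileum. The sums may also mix reads and pairs, so they do not compare depth between tissues.

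Libraries differed in tissue other than epithelium. All 8 epithelial markers were present in every group of libraries. Over the uninjected and KO libraries, Epcam lay between 670 and 1286 FPKM in colon and 765 and 1856 FPKM in ileum. Pancreatic acinar genes were very high in uninjected colon library 3 and KO colon library 2, with a median of 7193 and 2448 FPKM over 12 markers. Of these markers 10 were higher in uninjected minus KO colon and 5 in treated minus KO colon, and none was called by limma. The 10 hepatocyte markers summed to 28.3 to 1056 FPKM in uninjected colons, against 28.0 to 163 FPKM in KO colons; all 10 were higher in uninjected colon on the log2 scale and none was called by limma. The sum of 1056 FPKM was again in uninjected library 3, whose Selenbp2, 46.8 FPKM, was the second lowest of its group. Hepatocyte markers summed to 12.9 to 95.5 FPKM in treated colons, against 29.8 to 173 FPKM in KO colons, and 8 of the 10 were tested there, 3 of them higher in treated colon and none called by limma. Without the libraries highest in acinar markers, Selenbp2 differed by 3.20 in uninjected minus KO and by 2.91 in treated minus KO colon on the log2 scale, the second with an adjusted p of 0.0170 by limma. Smooth muscle markers, 6 of 6 present, summed to 1366 to 1700 FPKM in treated colons, against 2276 to 3206 FPKM in KO colons, and none was called; their part in the results was not tested. Leukocyte markers, 8 of 8 present, summed to 182 to 251 FPKM in treated colons, against 114 to 165 FPKM in KO colons. Endothelial markers, 4 of 4 present, summed to 3.35 to 12.8 FPKM in uninjected colons, against 13.8 to 20 FPKM in KO colons. Enteric neuron and glia markers summed to 10.1 to 14 FPKM in treated colons, against 5.61 to 8.21 FPKM in KO colons. None of these lists had a gene called by limma, and their part was not tested.

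In the ileum, where Selenbp2 was higher in every transgenic than in every KO library, most acinar markers also had a log2 difference above 0. They summed to 462 to 885 FPKM in treated ileum, against 240 to 487 FPKM in KO ileum, and all 12 were higher in treated ileum, with a median log2 difference of 1.97. In uninjected ileum they summed to 20.9 to 1036 FPKM, against 228 to 463 FPKM in KO ileum, and 11 of 12 had a log2 difference above 0, with a median of 0.95, although the median sum was 218 FPKM in uninjected and 293 FPKM in KO ileum. None of them was called by limma, and their part in the Selenbp2 values was not tested. Leukocyte markers summed to 270 to 273 FPKM in uninjected ileum, against 155 to 268 FPKM in KO ileum. In treated ileum they summed to 178 to 332 FPKM, against 161 to 282 FPKM in KO ileum. No leukocyte marker was called by limma, and their part was not tested either. Hepatocyte markers in the ileum summed to 7.96 to 23.9 FPKM in treated mice, against 7.28 to 38.6 FPKM in KO mice. The uninjected ileums had 8.16 to 16.7 FPKM, against 7 to 36.7 FPKM in KO ileums of that table. Most of this was Cyp2e1, at 2.99 to 31.5 FPKM, and Ttr, at 2.15 to 5.27 FPKM over the uninjected and KO ileums, while Ahsg and Fgg were listed at 0 in every library.

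Slc34a2, Slc30a10, Nr1h5 and Pla2g3 were among the 5 genes whose profile over the colon libraries lay nearest to Selenbp2. Nearness was the root-mean-square gap between centred log2(FPKM + 0.5) values, taken in the worst of the 3 colon tables over 12199 genes. It was 0.598 for Slc34a2, a sodium-dependent phosphate transporter, and 0.785 for Slc30a10, which exports manganese. Nr1h5, a nuclear receptor gene, followed at 0.962 and Pla2g3, a secreted phospholipase, at 0.986, while Selenbp1 came 7111th at 1.70. A flat profile would lie at 1.59, the size of Selenbp2's own swings. These are descriptions over libraries that include those used for the choice.

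Slc34a2 held 24.3 ± 8.70 FPKM in treated colon (SD, n = 3), against 4.30 ± 0.799 FPKM in KO colon (SD, n = 4). In the other table it held 18.4 ± 2.25 FPKM in uninjected colons, against 4.04 ± 0.757 FPKM in KO colons (SD, n = 4 each). Slc30a10 had a treated minus uninjected log2 difference of 1.11 and Nr1h5 one of 0.98, against -0.24 for Selenbp2. No gene passed limma's test in that comparison, and the groups overlapped for both genes. Slc30a10 had 42.2 to 136 FPKM in treated colons, against 30.7 to 56.1 FPKM in uninjected colons. Nr1h5 was low, at 1.56 to 8.29 FPKM in treated colons, against 0.783 to 5.98 FPKM in uninjected colons.

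In the ileum no Selenbp2 difference passed limma's test. The genes nearest to Selenbp2 there, over 11607, were B4galnt4 at 0.188, Wars at 0.194, Galnt2 at 0.214, Ripk3 at 0.220 and Myd88 at 0.222. A flat profile lay at 0.499, and 3061 genes lay nearer to Selenbp2 than that. For Selenbp1 the nearest genes in the colon were Rundc3a at 0.241, Ftl1, the ferritin light chain, at 0.265, Tymp, thymidine phosphorylase, at 0.272, Cox8a, a subunit of cytochrome oxidase, at 0.275 and Eno1, an enolase, at 0.287. In the ileum they were Zg16, a lectin of goblet cells, at 0.154, Prr15l at 0.164, D330041H03Rik at 0.167, and Hint3 and Myl6 at 0.205 each. Its own flat distances were 0.616 in the colon and 0.556 in the ileum.

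**Figure D4:**
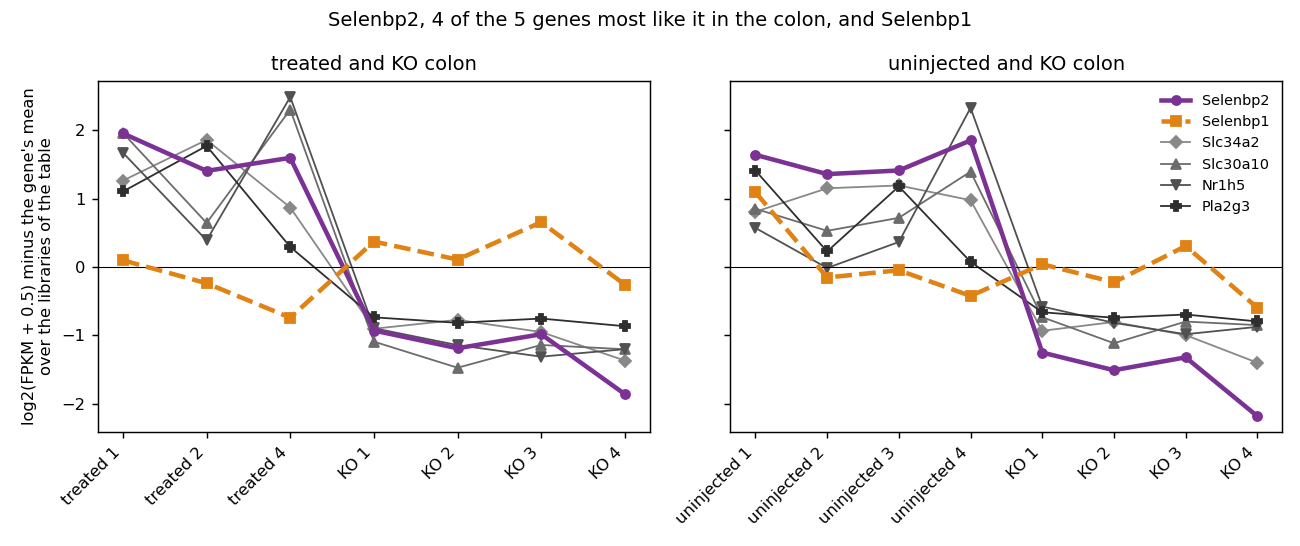
Centred log2(FPKM + 0.5) of Selenbp2 (purple), Selenbp1 (orange, dashed) and 4 of the 5 genes nearest to Selenbp2 in the colon (greys), per library of the treated and KO table (left) and of the uninjected and KO table (right). Selenbp2 and these 4 genes lie above 0 in the treated libraries and below 0 in all KO libraries, whereas Selenbp1 does not separate the groups.

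Along the chromosome, the genes around the pair had smaller differences than Selenbp2 in both comparisons with KO colon. Selenbp2 ranked 5th highest of 12437 tested genes in uninjected minus KO colon, which chose it. It ranked 27th highest of 12505 in treated minus KO colon, which shares the KO libraries. Nearly any genes would therefore lie below it, so nothing about the region is read from this contrast. The 5 annotated genes before the pair, the 2 between and the 5 after were looked up, and 0 of those tested passed limma's test in any of the 6 comparisons. With at most 0.296% of all genes passing in a comparison, a count of 0 among so few genes is no result about them. In treated minus KO colon the log2 differences of the genes before ran from -0.72 to 0.36, those between from -0.16 to 0.05 and those after from -1.02 to 0.43. In uninjected minus KO colon they ran from -0.62 to 0.71, from -0.26 to 0.50 and from -1.54 to 0.44 in the same order, over 4, 2 and 5 tested genes. Cgn, which encodes the tight-junction protein cingulin, is annotated across Selenbp2 on the minus strand, from 94464507 to 94590414, but shares 0 exonic bases with it. Its log2 difference was -0.72 in treated minus KO and -0.62 in uninjected minus KO colon (adjusted p = 0.744 and 0.721 by limma).

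**Figure D5:**
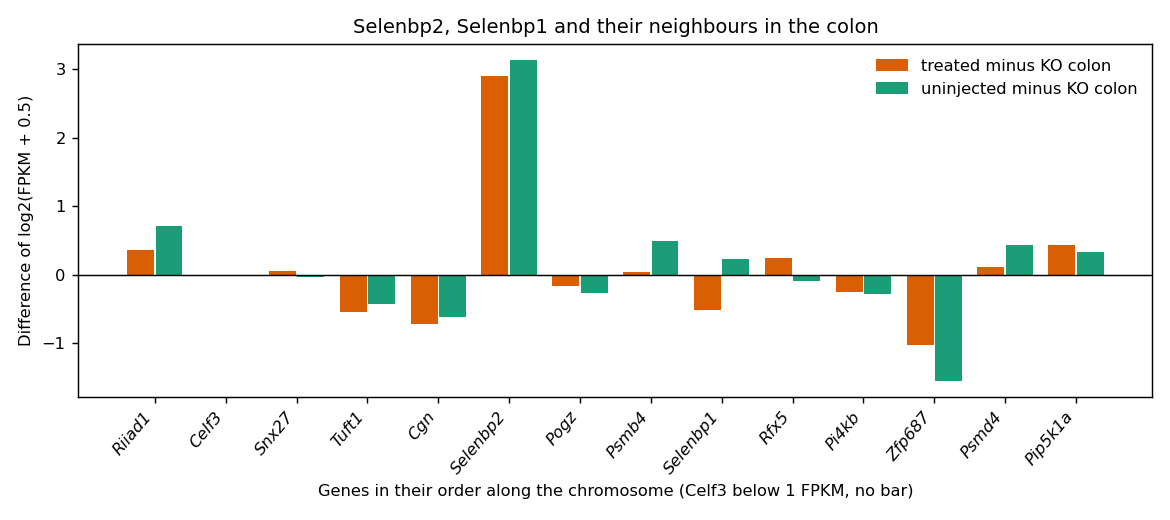
Difference of log2(FPKM + 0.5) in treated minus KO (orange) and uninjected minus KO colon (green) for Selenbp2, Selenbp1 and the annotated genes around them, in chromosomal order. Bars at Selenbp2 reach 2.89 and 3.13, and the next largest in size, at Zfp687, reach -1.02 and -1.54. Selenbp2 was chosen for the difference of 3.13, and the other comparison shares its KO libraries.

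Genes that share the chemistry of the pair were counted by list, against the percentages passing given above. Of the selenoproteins, which carry selenocysteine and include the glutathione peroxidases and thioredoxin reductases, 17 of 22 listed were tested and 0 passed limma's test in any of the 6 comparisons. Their median log2 difference was 0.10 in treated minus KO colon and 0.34 in uninjected minus KO colon, beside -0.01 over all genes in both. Of the 17, 3 and 1 had an unadjusted p below 0.05 by limma, beside 914 of 12505 and 572 of 12437 genes tested. These counts over all genes also apply to the lists that follow. Gpx2, a glutathione peroxidase of the gut epithelium, held 331 ± 149 FPKM in treated colon (SD, n = 3), against 549 ± 83.7 FPKM in KO colon (SD, n = 4), with an adjusted p of 0.618 by limma. Sepp1, which encodes the selenium transport protein of plasma, held 664 ± 160 FPKM in treated colon (n = 3), against 453 ± 59.2 FPKM in KO colon (n = 4), with an adjusted p of 0.671 by limma. Selm held 441 ± 179 FPKM in uninjected colon, against 199 ± 65.5 FPKM in KO colon (n = 4 each), with an adjusted p of 0.721 by limma.

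Of 11 genes for selenium uptake and selenocysteine synthesis, 9 or 10 were tested in a comparison and 0 passed. Their medians were 0.10 in treated minus KO and 0.04 in uninjected minus KO colon, with 0 at an unadjusted p below 0.05 in either. Of 11 genes of sulfide and methanethiol metabolism, which handle the products and the substrate of the human enzyme, 10 or 11 were tested and 0 passed. Their medians were -0.31 in treated minus KO and 0.26 in uninjected minus KO colon, with 0 at an unadjusted p below 0.05 in either. Tst, the sulfur transferase rhodanese, held 323 ± 219 FPKM in treated colon (n = 3), against 278 ± 93.6 FPKM in KO colon (n = 4). Cbs, cystathionine beta-synthase, held 26.6 ± 15.2 FPKM in treated colon (n = 3), against 42.8 ± 12.3 FPKM in KO colon (n = 4), with an adjusted p of 0.712 by limma.

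Of 16 genes for removal of hydrogen peroxide and targets of NRF2, 1 passed: Hmox1, which encodes heme oxygenase 1, in treated minus KO colon. It had 14.0, 10.9 and 21.5 FPKM in treated colons, against 4.90, 4.31, 5.20 and 3.97 FPKM in KO colons. Hmox1 was higher by 1.60 on the log2 scale (SE 0.238, adjusted p = 0.0438 by limma). The call held in 6 of 15 alternatives, with adjusted p from 0.0265 to 0.174. Leaving out any KO library or treated library 1 ended it, with adjusted p from 0.107 to 0.174, as did no filter on low values (0.0904), quantile normalization (0.0504) and no intensity trend (0.0528). The list's median was 0.06 in treated minus KO colon and 0.03 in uninjected minus KO colon. Prdx6, a peroxiredoxin, held 580 ± 290 FPKM in treated colon (n = 3), against 929 ± 190 FPKM in KO colon (n = 4), with an adjusted p of 0.691 by limma.

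Of 12 genes that mark differentiated surface epithelium, 11 or 12 were tested and 0 passed in any comparison. Their medians were -0.22 in treated minus KO colon and 0.34 in uninjected minus KO colon. Each had 1 gene at an unadjusted p below 0.05 by limma, beside 914 of 12505 and 572 of 12437 over all genes. Alpi, intestinal alkaline phosphatase, held 20.8 ± 0.781 FPKM in treated colon (n = 3), against 11.3 ± 7.05 FPKM in KO colon (n = 4), with an adjusted p of 0.594 by limma. Muc13, a membrane mucin, held 523 ± 221 FPKM in uninjected colon, against 852 ± 83.6 FPKM in KO colon (n = 4 each), with an adjusted p of 0.721 by limma. Aqp8, a water channel of surface colonocytes, held 183 ± 83.1 FPKM in uninjected colon, against 100 ± 26.5 FPKM in KO colon (n = 4 each), with an adjusted p of 0.721 by limma.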

How the data were processed

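RNA from mouse colon and ileum was measured in 21 samples, grouped by the labels' tissue, genotype and treatment. The deposited values are FPKM per gene, made by the authors in 6 tables of 21441 genes, each with 2 groups of a tissue. Poly(A) RNA was selected and mapping was done in CLC Genomics Workbench, per the labels' protocols; mm9, DESeq2, DESeq 1.14.0 and kallisto 0.45.0 are listed in the submitters' processing notes, which do not say what each did. Neither the annotation nor the treatment of reads that match several genes is given in the sources used here. Group sizes follow the labels and columns; the design text has 4 treated and 3 uninjected colon samples, the reverse of theirs.

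A library differed between its tables by a constant factor, from 1.0015 to 1.0721 in the colon and from 0.9661 to 1.0928 in the ileum, so groups were compared only within a table. Columns of treated and of uninjected ileum libraries could be tied to a group but not to 1 sample; libraries carry their column's number. No label names an animal, so p-values measure the spread between these samples, which may be technical.

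For each comparison, genes averaging 1 FPKM or more were tested on log2(FPKM + 0.5) with limma 3.58.1 (R 4.3.3, intensity trend, two-sided) with Benjamini-Hochberg adjustment over every gene in the fit, at 0.05. Fold changes are on this scale, which understates changes of low genes. Tissue differences are the ileum effect minus the colon effect in 1 fit. Whole steps, within 0.01 of a whole number, were found in the colon for 84.79% of 18779 detected genes and in the ileum for 84.33% of 18255; since others were left out, the sums of steps are lower bounds of depth. Steps entered no test. Selenbp1 and Selenbp2, the gene lists and the markers were chosen with earlier results of these data known. Named besides the pair are the 5 genes most like each member in each tissue, up to 5 annotated genes on either side, and list members that passed or had the smallest p in the comparisons of transgenic with KO colon, a few of which are given here; of the colon genes most like Selenbp2, 1 is not reported here. Older symbols were matched for some list members. Sequences come from RefSeq's promoter table and the GENCODE transcripts of mm9, aligned with Biopython 1.88; tables and plots used Python 3.11.15, numpy 2.4.6, pandas 2.3.3 and matplotlib 3.10.9. The fits were checked on simulated libraries with known changes. Alternatives were other pseudocounts, filters, scalings and priors, each library left out, a replicate block and labelled sex. Uninjected colon library 3 and KO colon library 2, the richest in acinar RNA, were also left out.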

Additional observations from a re-analysis of the deposited data

Results flagged for a closer look

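The FPKM of both genes in each table and the share of Selenbp2 relative to Selenbp1 gave 15 groups of 4 libraries that were checked for a library far from the others, of which 2 stood out, and both are the same library. Uninjected colon library 1 had 2424 FPKM of Selenbp1 in the table with KO colon and 2448 FPKM in the table with treated colon, whereas the other uninjected colons had 848 to 1099 and 853 to 1101 FPKM. Chance alone flags about 1 in 20 such groups. Its Selenbp2, 54.9 FPKM, was within the range of its group, so its share of Selenbp2 relative to Selenbp1 was the lowest of the transgenic colons at 2.27%. The part of tissue composition in this was not tested.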

How the results depend on the processing

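Selenbp2 in treated minus KO colon passed in all 15 alternatives run, with log2 differences of 2.68 to 3.01 and adjusted p of 0.00239 to 0.0209. Each of them used KO colon libraries that chose the gene, so these passes are not independent of that choice. The alternative on acinar RNA was here the same fit as leaving out KO library 2. In uninjected minus KO colon the described difference of Selenbp2 ran from 2.92 to 3.41. No result of Selenbp1, and no ileum or tissue-difference result of Selenbp2 with a test, passed under any alternative.

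Signs turned only for small differences, and the cause was not tested. Selenbp1 in uninjected minus KO colon was -0.042 under quantile normalization, -0.30 with labelled sex and -0.0895 to 0.42 with each library left out. In the ileum the same difference was -0.10 under quantile normalization and -0.17 to 0.51 with each library left out. Selenbp2 in treated minus uninjected ileum ran from -0.35 to 0.17 with each library left out. The Selenbp1 tissue differences turned to -0.0081 for treated minus uninjected and -0.054 for treated minus KO under quantile normalization, and the second to -0.0119 under median-ratio scaling. A mean of at least 5 FPKM leaves no ileum value for Selenbp2.

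With the replicate block in uninjected minus KO colon, Selenbp1 kept 0.24 (adjusted p = 0.756 by limma) and Selenbp2 3.13 (SE 0.273). Same-numbered libraries correlated at 0.00368, -0.00265, -0.00643 and 0.671; only those numbered 4 deviated together and matched their own number best, so the numbers were not taken to pair the samples. With the block 3 genes passed, and 10 without. Across other alternatives 1 to 68 genes passed in uninjected minus KO colon, the 68 without uninjected library 4 and the 1 with labelled sex, a fit that rests on the 1 male uninjected library. In treated minus KO colon 17 to 49 passed beside 37, in treated minus uninjected colon 0 to 4, and in uninjected and treated minus KO ileum 0 to 5 and 3 to 14. For the tissue differences 0 to 2 passed in uninjected minus KO and 1 to 7 in treated minus KO, beside 1 each. The 10 calls in uninjected minus KO colon split into 7 higher and 3 lower, into 6 and 5 under quantile normalization, and the 68 without uninjected library 4 into 15 higher and 53 lower. The 10 in treated minus KO ileum split into 7 and 3, and into 5 and 5 under quantile normalization. Few counted fragments of Selenbp2 in the ileum, 42 to 193 per library, and uncertain assignment between near-identical genes limit what its levels show.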
